A study of Ananas comosus with 9 samples.

Results

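The autophagy genes of pineapple (Ananas comosus) peel described here are the gene models that the deposited annotation places in the KEGG pathway "Autophagy - other eukaryotes", 50 of 26730 gene models in all. No expression value entered that choice. Of the 50, 44 passed the filter on low values (at least 1 FPKM, fragments per kilobase of transcript, scaled to library depth, in at least 3 libraries), among 16791 gene models that passed. They carry 23 different KEGG orthologs and lie on 21 contigs. Only 14 have a product description, so the names ATG1, TOR and so on used below are those of the KEGG ortholog each model carries.

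Peel was sampled at 60, 90 and 120 DAF (days after flowering), with 3 RNA-seq libraries of poly(A) RNA per age, in a series on how the peel transcriptome changes as the fruit matures. All 9 samples are labelled as peel of the same species and differ in the labels by age and replicate number. The labels used here give neither the cultivar nor a treatment, and it is not stated whether replicates are separate fruits. P-values therefore weigh the differences between ages against the scatter of these libraries, and that scatter may be technical. Each library is RNA of a whole tissue, in which a change in the make-up of cells and a change in RNA per cell cannot be told apart.

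Autophagy is the route by which plant cells enclose cytoplasm, proteins and organelles, chloroplasts included, in a double membrane and deliver them to the vacuole for breakdown. The ATG1 kinase complex starts the membrane, a phosphatidylinositol 3-kinase complex marks it, ATG9 vesicles and the lipid carrier ATG2 feed it, and a ubiquitin-like conjugation system fixes ATG8 to its lipid, where ATG8 holds cargo. The kinase TOR restrains the process when nutrients are ample, and in ageing leaves autophagy is known for recycling the nitrogen of chloroplast proteins.

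Library totals ran from 35038248 to 52937826 counts, of which the 50 genes took 0.265 to 0.311%. The second library of 90 DAF stands apart, with a summed FPKM of 8543 over 109 photosynthesis genes against 1241 to 2585 in the other 8 libraries. The summed FPKM of 24 light-harvesting antenna genes, used as a measure of green tissue, lay between 124 and 252 at 60 DAF, between 349 and 2769 at 90 DAF and between 36.8 and 56.1 at 120 DAF. That of 74 cutin, suberin and wax genes, used as a measure of epidermis, was 481 to 554, 649 to 759 and 374 to 459 FPKM at the same ages, so both tissue measures were present in all 9 libraries and, in FPKM, lowest at 120 DAF. FPKM lacks the scaling used for the tests below, which raises 120 DAF values relative to the earlier ages. Under that scaling the median log2 fold change for 120 against 60 DAF was -0.34 over 35 tested epidermis genes (15 positive, 20 negative). Over 18 tested antenna genes it was -1.55 (3 positive, 15 negative).

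All calls among the autophagy genes involved 120 DAF. Between 60 and 90 DAF no member passed the test (edgeR quasi-likelihood test, Benjamini-Hochberg adjusted over all 16791 genes, threshold 0.05). Between 90 and 120 DAF 5 members rose and none fell: 3 of the ATG8 genes, 1 ATG101 gene and the ATG9 gene. At 120 against 60 DAF 3 members were called higher, namely ATG9 and 2 of these ATG8 genes, and none lower. The other tested members, among them TOR, the phosphatidylinositol 3-kinase complex and the conjugation enzymes, did not pass the edgeR test in any comparison. Without the second library of 90 DAF, 2 members (4.5%) were called higher for 120 against 90 DAF, beside 6.03% of all genes. They were the ATG8 gene Aco008437 and the ATG101 gene. In that fit 4 members (9.09%) were called higher for 120 against 60 DAF, beside 7.075% of all genes. There ATG2 joined (edgeR adjusted p = 0.0308).

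These counts stand against a peel transcriptome that itself changed mostly late. For 90 against 60 DAF 0.322% of all genes tested were called higher and 0.465% lower, while with unadjusted p under 0.05 edgeR put 1 member higher and 2 lower, beside 1458 and 1387 of all 16791 genes, and DESeq2 called 0 members higher and 1 lower, beside 4.21% and 4.35% of all genes. For 120 against 90 DAF the 5 of 44 members called higher are 11.4%, beside 8.19% of all genes, and the 0 called lower stand beside 9.17%. Without adjustment, p under 0.05, edgeR put 12 members higher and 2 lower in this comparison, beside 2613 and 2969 of all 16791 genes. DESeq2 called 8 members higher and 1 lower, or 18.2% and 2.27%, beside 12.6% and 15.1% of all genes. For 120 against 60 DAF the 3 of 44 are 6.82%, beside 4.25% of all genes, and the 0 lower stand beside 5.22%, with 2 lower where p is left unadjusted (under 0.05), beside 2301 of all genes, and 0 lower in DESeq2, beside 10.9% of all genes. The share of members called higher is thus near the background share in both comparisons with 120 DAF. A contrast of the later step (90 to 120 DAF) with the earlier step (60 to 90 DAF) called 0 members in edgeR, beside 9.06% of all genes. With unadjusted p under 0.05 it had 5 positive and 2 negative members, beside 1986 and 2558 of all 16791 genes, and DESeq2 called 3 positive and 1 negative, or 6.82% and 2.27%, beside 8.87% and 11.1% of all genes. No member can therefore be called particular to the later interval by the edgeR test.

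The median log2 fold change of the 44 tested members was -0.07 for 90 against 60 DAF, 0.22 for 120 against 90 DAF and 0.18 for 120 against 60 DAF, beside 0.03, -0.03 and -0.01 over all genes tested. Folds are scaled by TMM (trimmed mean of M-values), which FPKM values are not, so a ratio of printed FPKM values at 120 DAF falls short of the fold beside it. Such a ratio can also point the other way than the fold. Scaling to total counts instead shifted the median of all genes by -0.30 for 120 against 90 DAF and -0.28 for 120 against 60 DAF, and the members' median moved with it to -0.07 and -0.10. Relative to the median of all genes, the members' median was 0.25 higher for 120 against 90 DAF under both scalings, with 32 of 44 members above it. Under total-count scaling 1 member was called higher (the ATG8 gene Aco008437) and 2 lower for 120 against 90 DAF, where the calls over all genes went from 1375 higher and 1540 lower to 649 higher and 2565 lower. For 120 against 60 DAF that scaling called 1 member higher and 1 lower, where the calls over all genes went from 714 higher and 876 lower to 381 higher and 1506 lower.

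**Figure D1:**
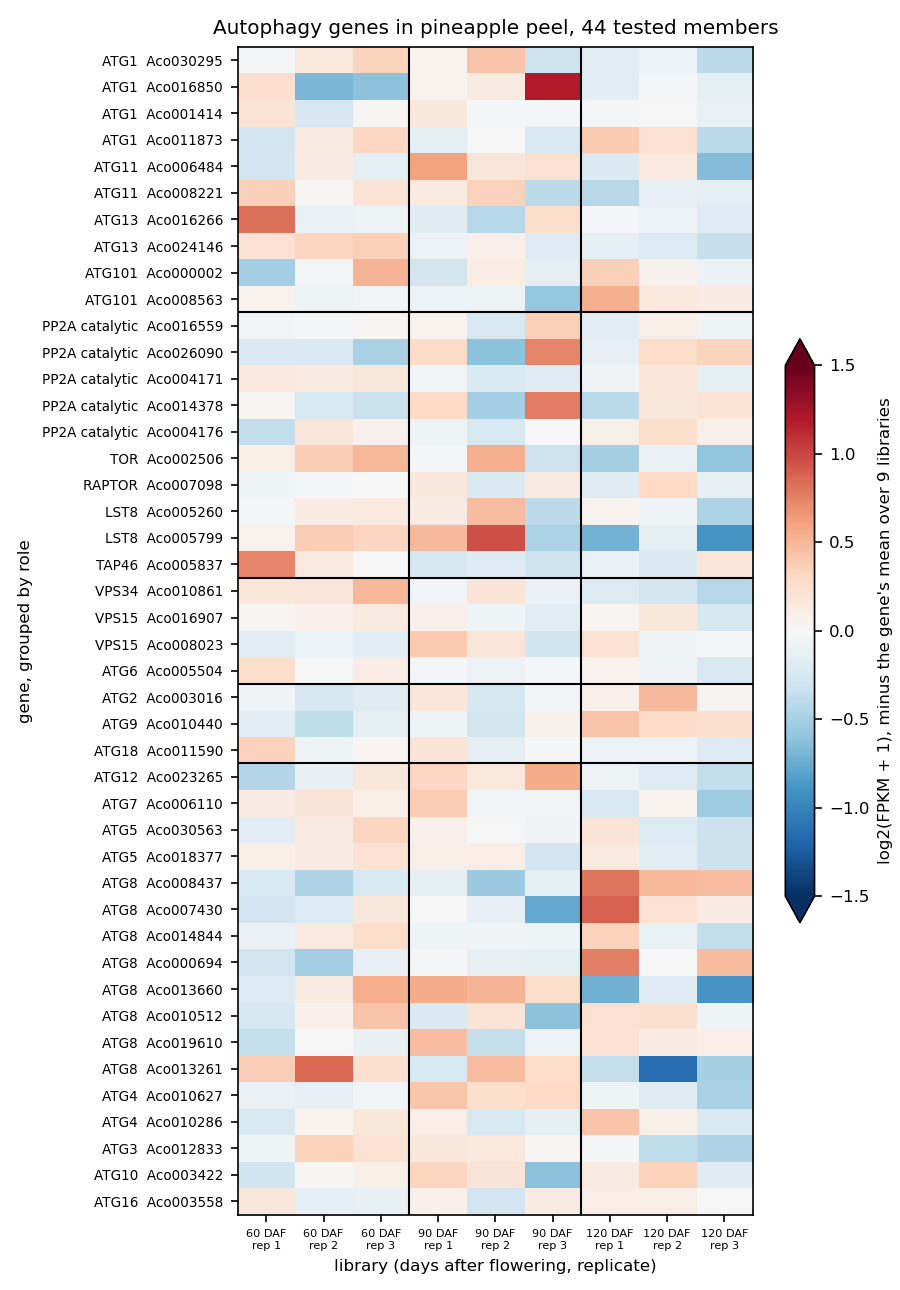
Each row is 1 of the 44 tested autophagy genes, grouped from top to bottom as initiation, regulators, phosphatidylinositol 3-kinase complex, membrane supply and conjugation, and each column is 1 library. Colour gives log2(FPKM + 1) minus the gene's mean over the 9 libraries (colours end at 1.5). Among the rows redder at 120 DAF are the ATG8 genes Aco008437, Aco007430 and Aco000694 and ATG9. Among those bluer are the ATG8 genes Aco013660 and Aco013261 and the LST8 gene Aco005799.

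Age means of most members lay close together. The highest age mean was a median 1.303-fold above the lowest for the 44 members, beside 1.65-fold over all genes tested, and the median coefficient of variation between libraries of 1 age was 14.7%, beside 24.7%. The members are also expressed more highly than most genes, with a median FPKM of 30.0 beside 16.8. Their age of highest mean FPKM was 60 DAF for 17 (38.6%), 90 DAF for 13 (29.5%) and 120 DAF for 14 (31.8%), beside 35.3%, 44.8% and 19.9% of all genes. FPKM carries no TMM scaling, so 120 DAF stands lower in these peaks than in the folds. With TMM, 30 of the 44 members had a positive log2 fold change for 120 against 90 DAF, beside 48.4% of all genes. For 120 against 60 DAF 32 did, beside 49.5%.

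**Figure D2:**
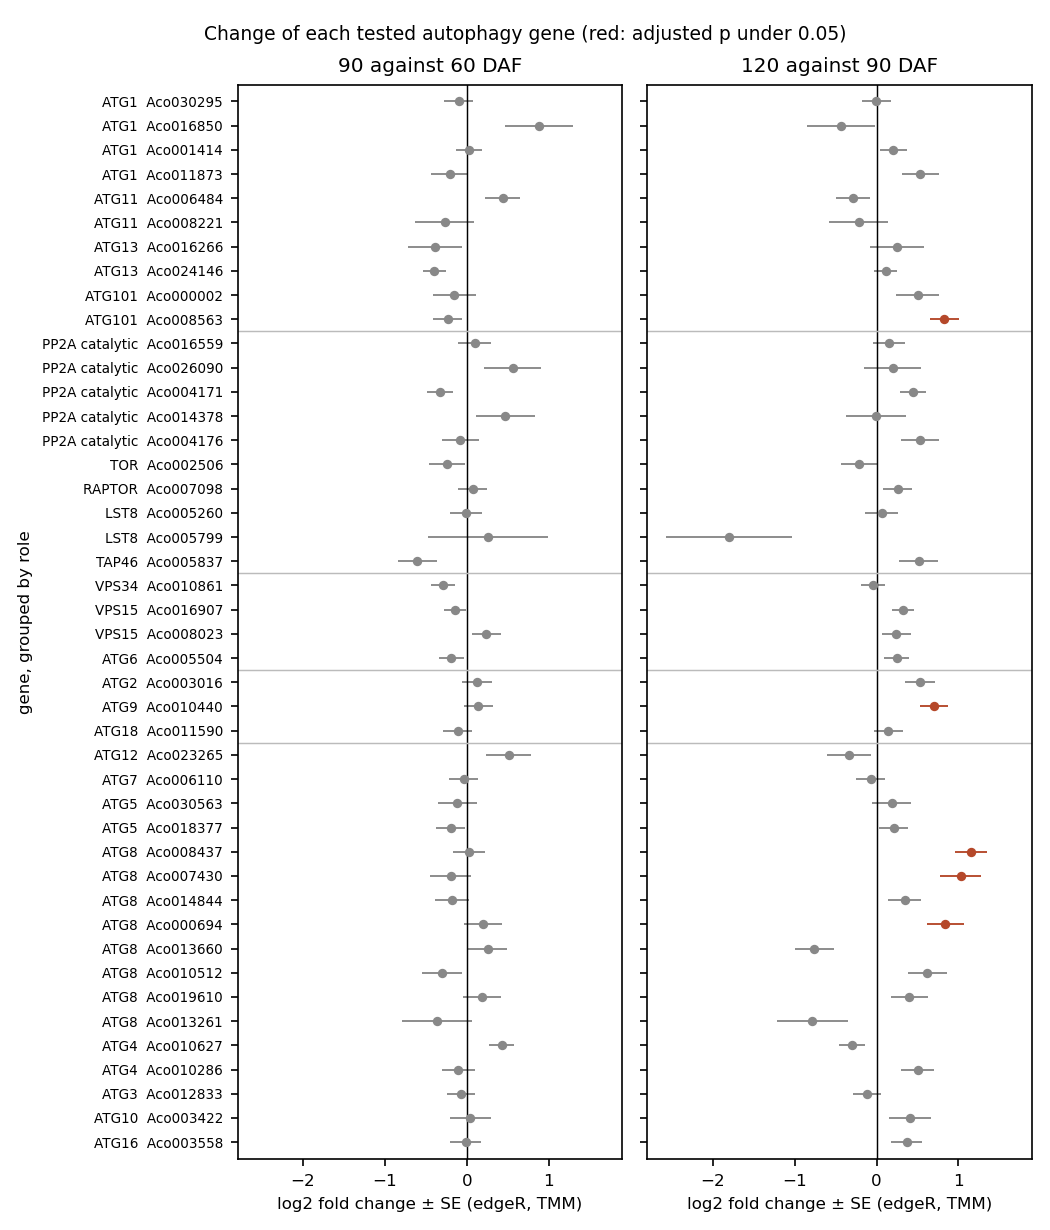
Log2 fold change with its standard error (edgeR, TMM scaling, all 9 libraries in the fit) of the 44 tested genes for 90 against 60 DAF, left, and 120 against 90 DAF, right, with genes past an adjusted p of 0.05 in red. No gene is red on the left, and 5 are red on the right, all with positive values between 0.70 and 1.15.

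The ATG1 kinase complex is encoded by 10 models, all of which passed the filter: 4 for the kinase ATG1 and 2 each for its partner ATG13, the scaffold ATG11 and ATG101, which binds ATG13. Of the 10, 1 rose between 90 and 120 DAF and none passed in the other comparisons. It was the ATG101 gene Aco008563 (contig 10:781007-783204, plus strand), with 44.1, 40.1 and 41.3 FPKM at 60 DAF, 40.0, 40.1 and 28.2 FPKM at 90 DAF and 62.1, 47.7 and 46.2 FPKM at 120 DAF. At 120 DAF all 3 libraries lay above the 6 earlier ones, and the third library of 90 DAF was the lowest. Its log2 fold change for 120 against 90 DAF was 0.83 ± 0.18 (SE), a 1.78-fold rise (edgeR adjusted p = 0.0184). Against 60 DAF it was 0.60 ± 0.18 (adjusted p = 0.0725), and the difference between its late and early changes had an adjusted p of 0.0693. The late call ended without replicate 1 of 120 DAF (adjusted p = 0.0661), and under total-count scaling the log2 fold change was 0.52 (adjusted p = 0.102).

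The second ATG101 gene, Aco000002, was the more abundant, at 101 ± 35.7 FPKM at 60 DAF, 91.0 ± 12.6 FPKM at 90 DAF and 106 ± 17.8 FPKM at 120 DAF (SD, n = 3), and its log2 fold change for 120 against 90 DAF was 0.50 ± 0.26 (adjusted p = 0.215). Its libraries of 60 DAF ran from 68.2 to 139 FPKM, a range that holds all 6 later values. The most abundant ATG1 gene, Aco030295, had 60.8 ± 7.74 FPKM at 60 DAF, 57.6 ± 14.9 FPKM at 90 DAF and 46.7 ± 5.01 FPKM at 120 DAF, and its 120 DAF libraries lay below those of 60 DAF and overlapped with those of 90 DAF (adjusted p = 0.768 for 120 against 60 DAF). The more abundant ATG11 gene, Aco006484, was highest at 90 DAF (39.9, 29.7 and 30.7 FPKM), against 21.2, 28.5 and 23.7 FPKM at 60 DAF and 22.2, 29.0 and 16.2 FPKM at 120 DAF, with an adjusted p of 0.337 for 90 against 60 DAF. The ATG13 gene Aco016266 had 29.8 ± 12.2 FPKM at 60 DAF, 22.8 ± 5.83 FPKM at 90 DAF and 22.5 ± 1.295 FPKM at 120 DAF, where the first library of 60 DAF (43.9 FPKM) lies far above the other 8 (17.8 to 29.2 FPKM).

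Some values outside the rule for named genes were chosen after they were seen. The other ATG13 gene, Aco024146, had 16.9, 18.2 and 18.6 FPKM at 60 DAF, 13.4, 15.23 and 12.5 FPKM at 90 DAF and 12.9, 12.3 and 11.1 FPKM at 120 DAF, all 60 DAF libraries above all later ones, and its log2 fold change for 90 against 60 DAF was -0.40 ± 0.14 (edgeR adjusted p = 0.205, DESeq2 adjusted p = 0.0185). The ATG1 gene Aco016850 reached 97.8 FPKM in the third library of 90 DAF, against 25.8 to 50.5 FPKM in the other 8 libraries. Over the 10 genes log2 fold changes ran from -0.40 to 0.88 for 90 against 60 DAF and from -0.44 to 0.83 for 120 against 90 DAF.

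Regulators upstream of that complex make up 10 models, all tested, and none passed in any comparison. The TOR gene Aco002506, for the kinase that restrains autophagy, had 43.5, 53.5 and 57.9 FPKM at 60 DAF, 40.2, 59.7 and 32.8 FPKM at 90 DAF and 28.5, 38.0 and 26.6 FPKM at 120 DAF. The 120 DAF libraries all lay below those of 60 DAF and overlapped with those of 90 DAF. The log2 fold change for 120 against 60 DAF was -0.46 ± 0.23 (adjusted p = 0.238). RAPTOR (Aco007098), which presents substrates to TOR, had 38.2 ± 0.768 FPKM at 60 DAF, 40.2 ± 5.82 FPKM at 90 DAF and 39.7 ± 7.68 FPKM at 120 DAF (SD, n = 3). The more abundant gene for LST8 (Aco005260), which binds the kinase domain, had 99.9 ± 6.08 FPKM at 60 DAF, 101 ± 29.0 FPKM at 90 DAF and 85.5 ± 15.4 FPKM at 120 DAF.

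TAP46 (Aco005837), a regulatory partner of protein phosphatase 2A that in Arabidopsis acts downstream of TOR, was among the most abundant members, with 238, 159 and 144 FPKM at 60 DAF, 120.1, 125 and 115 FPKM at 90 DAF and 134, 123 and 162 FPKM at 120 DAF. The 90 DAF libraries lay within a narrow band below all those of 60 DAF, of which the first was far above the rest. The log2 fold change for 90 against 60 DAF was -0.60 ± 0.24 (adjusted p = 0.252) and that for 120 against 90 DAF was 0.51 ± 0.23 (adjusted p = 0.167). Of the 5 models for the catalytic subunit of that phosphatase, the most abundant, Aco016559, had 103 ± 2.46 FPKM at 60 DAF, 109 ± 22.7 FPKM at 90 DAF and 101 ± 8.80 FPKM at 120 DAF. Of the others, Aco014378 and Aco026090 share the same span of contig 6, so reads between them could be split in counting. The second LST8 gene, Aco005799, was barely expressed (0.110 to 3.03 FPKM) and held the lowest log2 fold change of all tested members for 120 against 90 DAF, -1.81 ± 0.77 (adjusted p = 0.144). The other 9 regulators lay between -0.21 and 0.53 in that comparison.

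The phosphatidylinositol 3-kinase complex, which marks the membrane on which autophagosomes form, has 5 models, of which 4 were tested and none passed. The kinase VPS34 (Aco010861) had 35.3, 35.4 and 44.1 FPKM at 60 DAF, 30.2, 35.5 and 28.9 FPKM at 90 DAF and 26.7, 25.5 and 22.7 FPKM at 120 DAF, so that every 120 DAF library was below every earlier one. Its log2 fold change for 120 against 60 DAF was -0.33 ± 0.15 (adjusted p = 0.184) with TMM and -0.62 (adjusted p = 0.0434) with total-count scaling. Its regulatory kinase VPS15 (Aco016907, the more abundant of 2 genes) had 26.8 ± 1.07 FPKM at 60 DAF, 24.5 ± 2.10 FPKM at 90 DAF and 25.1 ± 3.86 FPKM at 120 DAF, and ATG6 (Aco005504), the Beclin subunit, had 58.8 ± 5.23 FPKM at 60 DAF, 52.0 ± 1.54 FPKM at 90 DAF and 50.7 ± 5.19 FPKM at 120 DAF (SD, n = 3). In both the 120 DAF libraries overlapped with those of 90 DAF.

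Membrane supply has 5 models among the members, of which 3 were tested, 1 for each protein. They are ATG9, the membrane protein of the vesicles that seed the autophagosome, ATG18, which binds phosphoinositides with ATG2, and ATG2, for which 3 models overlap and only Aco003016 was tested. ATG9 (Aco010440, contig 4:2436181-2444121, plus strand) had 23.5, 20.0 and 23.9 FPKM at 60 DAF, 25.2, 21.6 and 27.5 FPKM at 90 DAF and 35.7, 32.5 and 31.4 FPKM at 120 DAF. All 3 mature libraries lay above all earlier ones. The log2 fold change was 0.70 ± 0.17 for 120 against 90 DAF (SE, 1.63-fold, edgeR adjusted p = 0.0296) and 0.85 ± 0.18 for 120 against 60 DAF (1.80-fold, adjusted p = 0.0259). The first call ended without replicate 3 of 60 DAF, replicate 1 or 2 of 90 DAF, or any library of 120 DAF (adjusted p 0.0518 to 0.101), and the second without any library of 60 DAF or replicate 1 or 3 of 120 DAF (0.0573 to 0.107). Under total-count scaling the values were 0.42 (adjusted p = 0.0899) and 0.56 (adjusted p = 0.0503). The difference between the late and early changes of ATG9 had an edgeR adjusted p of 0.279.

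ATG2, the lipid carrier (Aco003016), had 47.4, 41.3 and 43.5 FPKM at 60 DAF, 56.3, 40.8 and 48.1 FPKM at 90 DAF and 52.0, 69.7 and 50.8 FPKM at 120 DAF, with the second library of 120 DAF the highest of all. Its log2 fold change for 120 against 60 DAF was 0.66 ± 0.18 (edgeR adjusted p = 0.0599, DESeq2 adjusted p = 0.00729). The other 2 ATG2 models lie within or across its span and held 70 and 100 counts over all 9 libraries. ATG18 (Aco011590) had 26.8 ± 4.32 FPKM at 60 DAF, 25.1 ± 3.07 FPKM at 90 DAF and 22.7 ± 1.03 FPKM at 120 DAF (SD, n = 3), and its 90 DAF libraries overlapped with those of both other ages. With TMM scaling its log2 fold change for 120 against 90 DAF was 0.14 ± 0.18 (edgeR adjusted p = 0.626). Genes described as ATG18a and ATG18f lie outside the pathway annotation and are given further below.

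The conjugation system has 20 models, of which 17 were tested, and 3 rose between 90 and 120 DAF, all of them ATG8 genes. Of the enzymes and of the ATG12 branch, 9 tested models in all, none passed. The E1-like enzyme ATG7 (Aco006110), which activates both ATG8 and ATG12, had 16.1 ± 0.617 FPKM at 60 DAF, 15.9 ± 2.98 FPKM at 90 DAF and 12.4 ± 2.69 FPKM at 120 DAF (SD, n = 3). The E2-like enzyme ATG3 (Aco012833), which passes ATG8 to its lipid, had 39.7, 52.9 and 49.0 FPKM at 60 DAF, 47.0, 46.2 and 42.4 FPKM at 90 DAF and 40.9, 31.6 and 29.8 FPKM at 120 DAF. Its 120 DAF libraries lay below all those of 90 DAF, and 1 of them above the lowest of 60 DAF. Its log2 fold change for 120 against 60 DAF was -0.18 ± 0.17 (adjusted p = 0.534).

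The protease ATG4 trims ATG8 before conjugation and frees it from the lipid afterwards. Its more abundant gene, Aco010627, had 19.6, 19.2 and 20.4 FPKM at 60 DAF, 28.4, 25.4 and 26.1 FPKM at 90 DAF and 20.1, 18.4 and 14.7 FPKM at 120 DAF. All 90 DAF libraries lay above all others. The log2 fold change of Aco010627 was 0.43 ± 0.16 for 90 against 60 DAF (adjusted p = 0.231) and -0.30 ± 0.16 for 120 against 90 DAF (adjusted p = 0.223), and for the latter -0.59 (adjusted p = 0.0417) under total-count scaling. The second ATG4 gene, Aco010286, chosen after its values were seen, followed another course, so that its FPKM divided by that of Aco010627 lay between 0.672 and 0.877 at 60 DAF, between 0.519 and 0.596 at 90 DAF and between 0.908 and 1.07 at 120 DAF. The 3 ages do not overlap in this ratio, which carries no test since the pair was picked from these values.

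In the ATG12 branch, ATG12 (Aco023265), the ubiquitin-like protein that is joined to ATG5, had its highest mean at 90 DAF, with 8.02 ± 1.89 FPKM at 60 DAF, 11.4 ± 1.73 FPKM at 90 DAF and 7.41 ± 0.834 FPKM at 120 DAF (SD, n = 3, adjusted p = 0.387 for 90 against 60 DAF). ATG10 (Aco003422), the E2-like enzyme of that branch, had 10.3, 13.1 and 13.8 FPKM at 60 DAF, 16.3, 14.8 and 8.07 FPKM at 90 DAF and 14.2, 16.7 and 11.2 FPKM at 120 DAF. The models Aco030563 (ATG5) and Aco023265 (ATG12) are typed as nontranslating in the deposited table. Aco030563 lies within the span of the second, protein-coding ATG5 model Aco018377 and held 1934 counts over the 9 libraries, against 7828. ATG5 (Aco030563) had 22.7 ± 3.92 FPKM at 60 DAF, 21.0 ± 0.994 FPKM at 90 DAF and 19.5 ± 4.02 FPKM at 120 DAF, and ATG16 (Aco003558), the scaffold of the ATG12-ATG5 conjugate, had 25.3 ± 3.12 FPKM at 60 DAF, 25.1 ± 3.85 FPKM at 90 DAF and 26.7 ± 1.13 FPKM at 120 DAF. In ATG10, ATG5 (Aco030563) and ATG16 the libraries of the 3 ages overlap.

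ATG8 is the largest family here, with 10 models. Of them 8 were tested, 3 rose between 90 and 120 DAF and none was called lower. The most abundant, Aco008437 (contig 20:10360778-10364018, plus strand), had 186, 158 and 185 FPKM at 60 DAF, 197, 147 and 197 FPKM at 90 DAF and 382, 307 and 301 FPKM at 120 DAF. The 60 and 90 DAF libraries overlap, and the lowest 120 DAF library lies far above the highest earlier one. The log2 fold change was 1.15 ± 0.20 for 120 against 90 DAF (SE, 2.23-fold, edgeR adjusted p = 0.00899) and 1.19 ± 0.20 for 120 against 60 DAF (2.27-fold, adjusted p = 0.0127). The first was called in all 18 alternatives tried, with adjusted p from 6.26e-06 to 0.0381, and lay 1.18 above the median of all genes with TMM and 1.19 above it with total-count scaling. The second ended without replicate 2 (adjusted p = 0.060) or replicate 3 (adjusted p = 0.0513) of 60 DAF. The test of its late against its early change had an adjusted p of 0.0774 by edgeR and 0.0274 by DESeq2.

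Aco007430 (contig 13:12295521-12297671, minus strand) was about as abundant, with 162, 171 and 224 FPKM at 60 DAF, 197, 182 and 116 FPKM at 90 DAF and 365, 230.1 and 217 FPKM at 120 DAF. The first library of 120 DAF is far above the others, and the lowest of 120 DAF falls below the highest of 60 DAF. Its log2 fold change was 1.03 ± 0.25 for 120 against 90 DAF (2.04-fold, adjusted p = 0.0287) and 0.83 ± 0.25 for 120 against 60 DAF (adjusted p = 0.0766). The difference between its late and early changes had an edgeR adjusted p of 0.1215. The late call ended without replicate 2 or 3 of 90 DAF or replicate 1 of 120 DAF (adjusted p 0.0561 to 0.0829), and under total-count scaling the value was 0.71 (adjusted p = 0.106).

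Aco000694 (contig 13:149892-151341, plus strand) had 60.9, 51.7 and 68.2 FPKM at 60 DAF, 72.8, 68.0 and 67.8 FPKM at 90 DAF and 126, 74.2 and 104 FPKM at 120 DAF. The second library of 120 DAF lies just above the 6 earlier ones and the other 2 well above them. Aco000694 had a log2 fold change of 0.84 ± 0.23 for 120 against 90 DAF (1.79-fold, adjusted p = 0.0401) and 1.04 ± 0.23 for 120 against 60 DAF (2.05-fold, adjusted p = 0.0318). The first of these rests on nearly every library: it ended without any of the 9 but replicate 2 of 120 DAF (adjusted p 0.0569 to 0.134). The second ended without any library of 60 DAF or without replicate 1 or 3 of 120 DAF (0.0755 to 0.1197). Under total-count scaling the values were 0.54 (adjusted p = 0.117) and 0.75 (adjusted p = 0.0632). The difference between the late and early changes of Aco000694 had an edgeR adjusted p of 0.345.

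**Figure D3:**
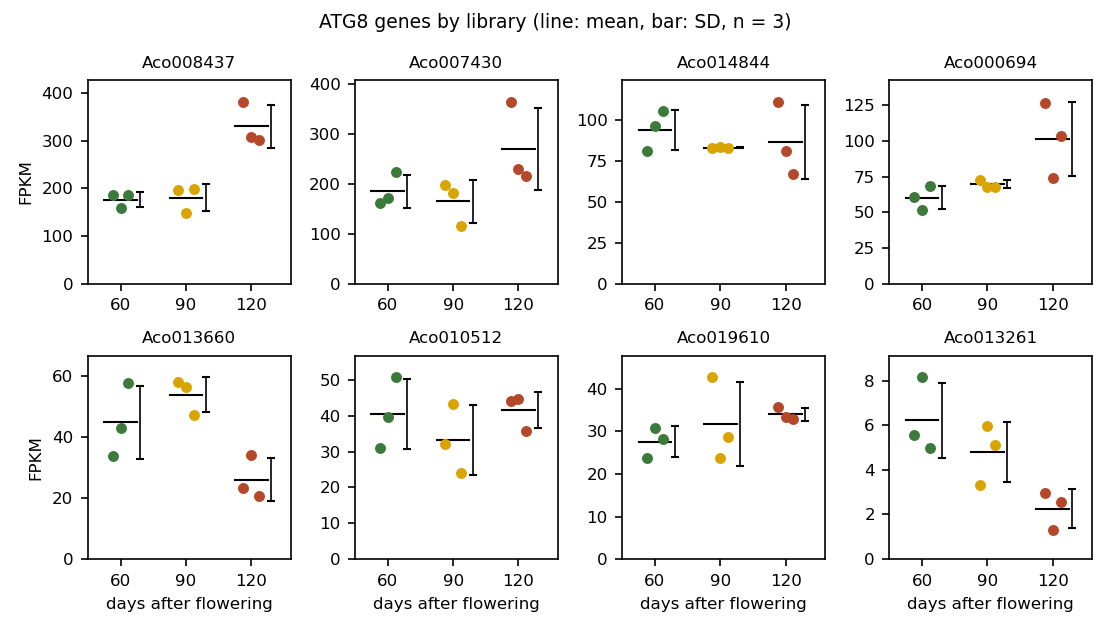
FPKM of the 8 tested ATG8 genes in each library at 60, 90 and 120 DAF, with the mean as a line and the SD as a bar (n = 3), each panel on its own linear axis from 0. In Aco008437 the 120 DAF libraries (301 to 382 FPKM) lie above all others (147 to 197 FPKM), and in Aco013660 they (20.7 to 34.0 FPKM) lie below all those of 90 DAF (47.3 to 57.9 FPKM).

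Of the 8 tested ATG8 genes, 6 had a positive log2 fold change for 120 against 90 DAF and 2 a negative, none of these called. Chosen after its values were seen, Aco013660 had 33.9, 42.9 and 57.7 FPKM at 60 DAF, 57.9, 56.2 and 47.3 FPKM at 90 DAF and 23.4, 34.0 and 20.7 FPKM at 120 DAF. All 120 DAF libraries lay below all 90 DAF ones, and the log2 fold change for 120 against 90 DAF was -0.76 ± 0.24 (edgeR adjusted p = 0.0616). It was called lower in 6 of 18 alternatives, among them DESeq2 (adjusted p = 0.0124), total-count scaling (adjusted p = 0.0316) and the fit without replicate 2 of 120 DAF (adjusted p = 0.0445). Within each library, FPKM of Aco008437 was 3.21 to 5.48 times that of Aco013660 at 60 DAF, 2.62 to 4.17 times at 90 DAF and 9.04 to 16.3 times at 120 DAF. This ratio shows unequal change of the pair and carries no test, since both genes were picked from these values.

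Of the other 4 tested ATG8 genes, none was called in any comparison. Aco014844, the third in level, had 94.2 ± 12.4 FPKM at 60 DAF, 83.2 ± 0.405 FPKM at 90 DAF and 86.5 ± 22.6 FPKM at 120 DAF (SD, n = 3), Aco010512 40.4 ± 9.84 FPKM at 60 DAF, 33.2 ± 9.64 FPKM at 90 DAF and 41.5 ± 4.98 FPKM at 120 DAF, and Aco019610 27.6 ± 3.64 FPKM at 60 DAF, 31.7 ± 9.87 FPKM at 90 DAF and 34.0 ± 1.48 FPKM at 120 DAF. Aco013261 was the lowest, at 6.21 ± 1.70 FPKM at 60 DAF, 4.80 ± 1.35 FPKM at 90 DAF and 2.27 ± 0.872 FPKM at 120 DAF. For 120 against 60 DAF its log2 fold change was -1.15 ± 0.44 (edgeR adjusted p = 0.134), and limma on log2(FPKM + 1) gave an adjusted p of 0.0405. The remaining 2 ATG8 models were near absent: Aco019611 held 28 counts over the 9 libraries, and Aco020913 was listed at 0 counts in all 9.

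The make-up of the ATG8 transcripts at 120 DAF was unlike that at the earlier ages. The summed FPKM of the family was 584, 599 and 724 in the libraries of 60 DAF, 686, 610.5 and 569 in those of 90 DAF, and 1090.4, 806 and 781 in those of 120 DAF. Of this sum the pair Aco008437 and Aco007430 took 59.6, 55.0 and 56.5% in the youngest peel, 57.4, 54.0 and 55.0% in peel of 90 DAF, and 68.5, 66.7 and 66.3% in the oldest. Aco013660 took between 5.81 and 7.97% at 60 DAF, between 8.32 and 9.21% at 90 DAF and between 2.14 and 4.22% at 120 DAF, and Aco014844 took 13.9 to 16.1%, 12.1 to 14.6% and 8.602 to 10.2% at the same ages. In these 3 shares the 120 DAF libraries do not overlap with the earlier ones. Taken apart, Aco008437 held 25.55 to 31.8%, 24.2 to 34.7% and 35.0 to 38.6% at the 3 ages, and Aco007430 held 27.7 to 30.9%, 20.3 to 29.8% and 27.7 to 33.5%. The share of Aco007430 at 120 DAF thus overlaps with the earlier ones, and the lowest 120 DAF share of Aco008437 lies just above its highest at 90 DAF. By level, Aco008437 and Aco007430 held the 2 upper ranks in all 9 libraries, changing places between replicates. Aco014844 ranked 3 and Aco000694 ranked 4 in all earlier libraries, and they changed places in 2 of the 3 libraries of 120 DAF. Aco013660 ranked 5 in every library of 60 and 90 DAF and 6 or 7 at 120 DAF, where Aco010512 ranked 5.

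**Figure D4:**
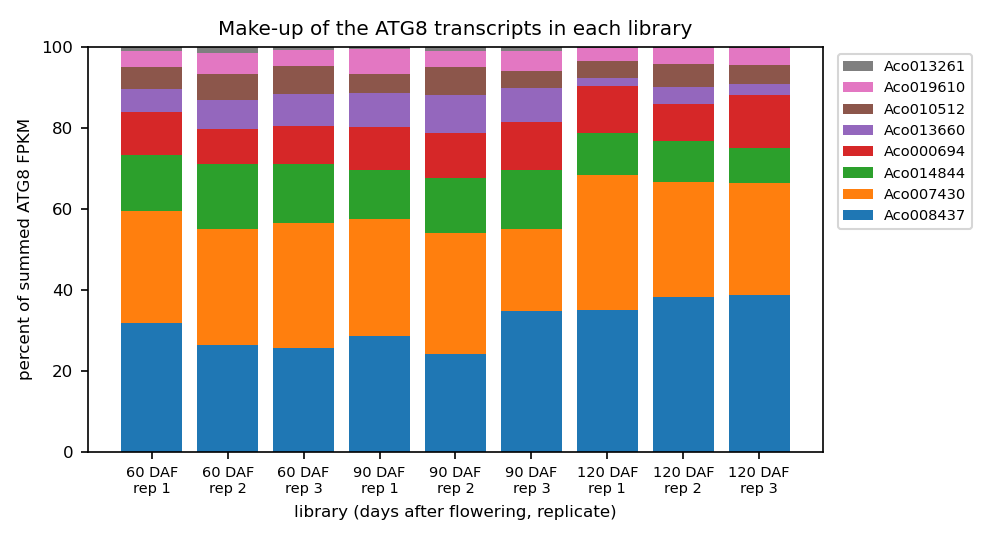
Percent of the summed ATG8 FPKM that each of the 8 tested ATG8 genes took in each library, as bars stacked to 100. The pair at the base, Aco008437 and Aco007430, takes 66.3 to 68.5% in the 120 DAF libraries and 54.0 to 59.6% in the earlier 6.

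The ATG8 genes that rose were also set against the enzyme that conjugates ATG8, within each library. The FPKM of Aco008437 divided by that of ATG3 lay between 2.99 and 4.68 at 60 DAF, between 3.19 and 4.66 at 90 DAF and between 9.34 and 10.1 at 120 DAF. For Aco007430 that ratio was 3.24 to 4.57, 2.73 to 4.19 and 7.27 to 8.94, and for Aco000694 it was 0.976 to 1.53, 1.47 to 1.60 and 2.35 to 3.47. Divided by the FPKM of TOR, Aco008437 stood at 2.96 to 4.27, 2.47 to 6.03 and 8.09 to 13.4. In these 4 ratios every 120 DAF library lies above the 6 earlier ones. The ATG8 genes were taken because they were called higher, and ATG3 and TOR had their lowest mean FPKM at 120 DAF, so these ratios carry no test and describe unequal levels within a library.

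The 6 members that did not pass the filter were 2 ATG8 models and 2 ATG2 models, already given, the VPS34 model Aco010862, which lies on the opposite strand within the other VPS34 gene and held 20 counts in all, and the ATG3 model Aco010607, with 3 counts in 1 library. Their highest FPKM in any library was 1.64. Among the 50 models, 9 overlap another member on the contig, so reads of these could be split or shared in counting, and the strand setting is not given in the sources used here. None of the 5 called members overlaps another model, but reads of near-identical ATG8 copies could still be split.

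A search by GO term or description adds 5 tested genes outside the pathway. Of these, 1 was found through a term on non-autophagic vacuole fusion and 1 through a term on the response to nitrogen starvation. Aco001884 and Aco014476, described as ATG18a and ATG18f, were picked once their values were known. Aco001884 had mean values of 35.1, 33.0 and 34.4 FPKM at 60, 90 and 120 DAF, and Aco014476 had 39.1, 41.3 and 43.5 FPKM. By edgeR 0 of the 5 were called in any comparison, with log2 fold changes from -2.16 to 0.47 for 120 against 90 DAF, where 1 was higher and 1 lower with unadjusted p under 0.05. The gene of the nitrogen starvation term held the -2.16 and was the lower one (edgeR unadjusted p = 0.0142). The gene of the vacuole fusion term held the 0.47 and was the higher one (edgeR unadjusted p = 0.0261). ATG18a and ATG18f had 0.34 ± 0.17 and 0.35 ± 0.28 (edgeR adjusted p = 0.194 and 0.428).

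Beside degreening, 3 ATG8 genes and 2 genes that dismantle chlorophyll were called higher for 120 against 90 DAF. Of 11 chlorophyll breakdown genes 9 were tested, and besides these 2, 1 was called lower for 120 against 90 DAF, while 3 were called higher for 120 against 60 DAF and 0 by edgeR for 90 against 60 DAF, with 3 higher when p was left unadjusted (under 0.05). For 120 against 90 DAF the 2 higher are 22.2% and the 1 lower 11.1%, beside 8.19% and 9.17% of all genes. For 120 against 60 DAF the 3 are 33.3%, beside 4.25%. The 0 for 90 against 60 DAF stands beside 0.322% of all genes called higher. These counts changed when single libraries were left out, as did the calls over all genes. For 120 against 60 DAF 0 were called higher without replicate 2 or 3 of 60 DAF, 1 without replicate 1 of 60 DAF or any library of 120 DAF, 2 without replicate 1 of 90 DAF and 4 without replicate 2 of 90 DAF. Without replicate 2 or 3 of 60 DAF, 0.804% and 0.965% of all genes were called higher. The median log2 fold change of the 9 genes was 0.51 and 0.53 in those fits, beside 0.60. Without replicate 1 or 2 of 90 DAF, 3.32% and 7.075% of all genes were called higher. For 120 against 90 DAF 1 was called higher without replicate 3 of 60 DAF, replicate 1 of 90 DAF or any library of 120 DAF, and 3 without replicate 3 of 90 DAF, and the 1 called lower became 2 without replicate 3 of 90 DAF and 0 without any other library. Of all genes, 5.80% were called higher and 6.99% lower without replicate 3 of 60 DAF. Without replicate 1 of 90 DAF the shares were 6.05% and 7.80%. STAY-GREEN (Aco013139), which takes the magnesium from chlorophyll a, had 169, 69.8 and 130.1 FPKM at 60 DAF, 164, 36.6 and 123 FPKM at 90 DAF and 551, 337 and 292 FPKM at 120 DAF, with a log2 fold change of 2.15 ± 0.58 for 120 against 90 DAF (edgeR adjusted p = 0.0373). The second library of 90 DAF, which holds the most photosynthesis transcripts, was the lowest. Chlorophyll b reductase (Aco000337), the first enzyme of chlorophyll b breakdown, had 66.4, 60.2 and 57.9 FPKM at 60 DAF, 71.1, 49.7 and 45.8 FPKM at 90 DAF and 150.3, 105 and 186 FPKM at 120 DAF, with a log2 fold change of 1.72 ± 0.25 (adjusted p = 0.00563).

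Pheophorbide a oxygenase (Aco022956), which opens the chlorophyll ring, was called higher at 120 against 60 DAF and not in either shorter interval: it had 51.4 ± 7.35 FPKM at 60 DAF, 84.1 ± 20.3 FPKM at 90 DAF and 103 ± 25.5 FPKM at 120 DAF (SD, n = 3), with a log2 fold change of 1.27 ± 0.27 for 120 against 60 DAF (adjusted p = 0.0273) and an adjusted p of 0.861 for unequal steps. A second gene of that ortholog, Aco011588, described as the chloroplast protein TIC 55, had 34.6 ± 9.39 FPKM at 60 DAF, 47.0 ± 27.1 FPKM at 90 DAF and 102 ± 26.2 FPKM at 120 DAF and an adjusted p of 0.04996 for 120 against 60 DAF. The pair of genes with the EC number of pheophorbidase, Aco003907 and Aco004803, had 43.8 ± 7.01 FPKM at 60 DAF, 82.6 ± 35.7 FPKM at 90 DAF and 54.9 ± 3.91 FPKM at 120 DAF, and 49.7 ± 16.3 FPKM at 60 DAF, 52.9 ± 10.4 FPKM at 90 DAF and 28.7 ± 11.0 FPKM at 120 DAF, and were not called. Set side by side for 120 against 90 DAF, the log2 fold changes were 2.15 ± 0.58 for STAY-GREEN, 1.72 ± 0.25 for chlorophyll b reductase, 1.15 ± 0.20 for the ATG8 gene Aco008437 and 0.70 ± 0.17 for ATG9. These genes were picked for their calls. Of the 9 tested chlorophyll breakdown genes, 4 had a positive log2 fold change in that comparison and 5 a negative one, with a median of -0.33. Both pathways were compared over the same 9 libraries. The green-tissue and epidermis measures given above, in FPKM without TMM scaling, were lowest in the same 120 DAF libraries. The part of these tissue measures in the changes was not tested.

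**Figure D5:**
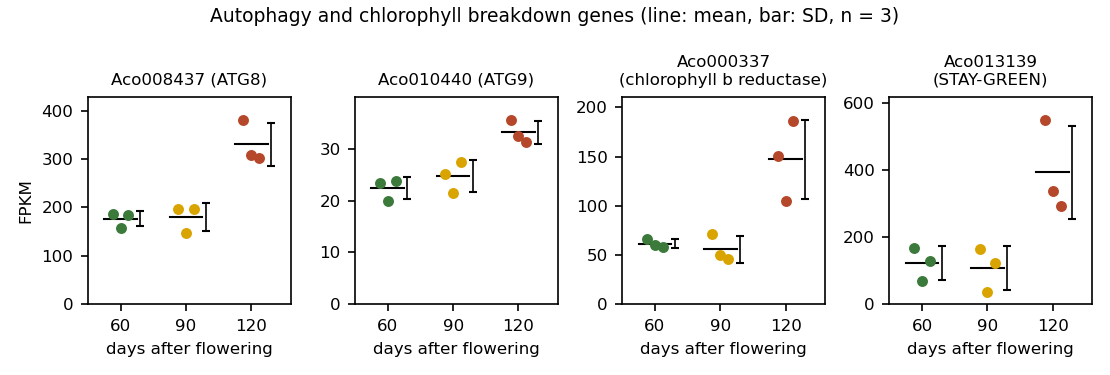
FPKM in each library of the ATG8 gene Aco008437, ATG9 (Aco010440), chlorophyll b reductase (Aco000337) and STAY-GREEN (Aco013139) at 60, 90 and 120 DAF, with the mean as a line and the SD as a bar (n = 3), on linear axes from 0. In all 4 genes the 3 libraries of 120 DAF lie above the 6 earlier ones. The 4 genes were picked because they were called higher for 120 against 90 DAF, so this separation follows from the choice and carries no test.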

How the data were processed

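RNA-seq of pineapple peel was analysed in 9 libraries, 3 per age. Each gene model has a whole-number read count and the authors' FPKM value per library in the deposited table, per the file headers; FPKM at a count of 0 is written there as 0.0001 and was read as 0. HISAT2 2.0, StringTie 1.3.0 and Bowtie 0.12.2 are named in the processing lists, per the submitters' processing notes. The part each played, the strand setting and the build were not given in the sources used here, so contigs and positions are those of the deposited table. Library totals ran from 35038248 to 52937826 counts.

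Counts were tested with edgeR 4.0.16 (R 4.3.3), a quasi-likelihood fit with TMM scaling over all 9 libraries (6 residual degrees of freedom), on the 16791 genes that reached 1 FPKM in 3 or more libraries. Adjustment was by Benjamini-Hochberg over all of them, with a threshold of 0.05. Besides the 3 pairs of ages, a contrast set the step from 90 to 120 DAF against the step from 60 to 90 DAF. A standard error is the size of the log2 fold change divided by the square root of F. Alternatives were DESeq2 1.42.0, median-ratio and total-count scaling, no filter and a stricter filter (5 FPKM), limma 3.58.1 on log2(FPKM + 1) and log2(FPKM + 0.1), the replicate number as a block, a fit of the 2 compared ages alone, and leaving out each library.

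Named with values are the called members and the most abundant member of each KEGG ortholog, 26 in all, and outside the members up to 6 chlorophyll breakdown genes by mean FPKM. Other genes were named with their values known, and some are marked so where they appear. Unmarked are the rest of the tested ATG8 family, the second LST8 gene, and models named for overlap or few counts. The members and lists were chosen with earlier results of these data known. Lists of autophagy regulators and receptors outside the members and of vacuolar processing enzymes held 0 genes by the codes searched. Of the member identifiers, 0 were found in the RefSeq gene table at hand, and no sequence is shown. Whether equal replicate numbers pair samples was checked: same-numbered samples' deviations correlated at -0.34 to 0.39, above 0.1 in 2 of 9 pairs, so the numbers do not pair them. Figures were drawn with matplotlib 3.10.9.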

Additional observations from a re-analysis of the deposited data

How the results depend on the processing

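Of the 26 named members in the 3 comparisons of ages, 8 member and comparison pairs were called, and 0 of these reversed under any of the 18 alternatives. Over these pairs and alternatives the call was lost 53 times. Only that of the ATG8 gene Aco008437 for 120 against 90 DAF held in all 18. Of the 70 uncalled pairs, 7 passed the threshold under some alternative, and 36 changed sign under some alternative while uncalled. DESeq2 called 1 member lower for 90 against 60 DAF, 8 higher and 1 lower for 120 against 90 DAF, 6 higher for 120 against 60 DAF, and 4 with unequal steps. The 6 higher are 13.6%, beside 9.36% of all genes, and the other shares are given above. Total-count scaling called 1 higher and 2 lower for 120 against 90 DAF and 1 higher and 1 lower for 120 against 60 DAF, which goes with its shift of the median of all genes. Each limma fit called 1 higher and 2 lower (2.27% and 4.5%) for 120 against 90 DAF and likewise 1 higher and 2 lower for 120 against 60 DAF. With log2(FPKM + 1), 4.25% of all genes were called higher and 14.7% lower for 120 against 90 DAF. For 120 against 60 DAF the shares of all genes were 2.77% and 9.54%. FPKM carries no TMM scaling. The stricter filter called 1 lower (2.38%) for 120 against 90 DAF, beside 9.66% of all genes. With only the 2 compared ages in the fit, 1 was called higher for 120 against 90 DAF and 5 for 120 against 60 DAF. Leaving out each library in turn gave 1 to 4 members higher and 0 to 1 lower for 120 against 90 DAF, and 0 to 4 higher for 120 against 60 DAF. The lowest count of 1 for 120 against 90 DAF came without replicate 1 of 120 DAF, and the 0 for 120 against 60 DAF without replicate 2 or replicate 3 of 60 DAF. In these last 2 fits 0.804% and 0.965% of all genes were called higher for 120 against 60 DAF, beside 4.25% with all libraries. Without replicate 1 or 2 of 60 DAF the count for 120 against 90 DAF was 4 (9.09%), beside 6.71% and 5.67% of all genes. Without the second library of 90 DAF, which stands apart, 2 members (4.5%) were called higher for 120 against 90 DAF, beside 6.03% of all genes. With the replicate block the counts were 0 for 90 against 60 DAF, 4 higher for 120 against 90 DAF and 3 higher for 120 against 60 DAF. The 0 stands beside 0.0119% of all genes higher and 0.0476% lower. The 4 are 9.09%, beside 5.28% of all genes, and the 3 are 6.82%, beside 2.48%. The call lost was that of the ATG8 gene Aco007430 for 120 against 90 DAF (edgeR adjusted p = 0.0579). The cause of these differences was not tested.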

Other observations

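Other routes of breakdown gave these counts for 120 against 90 DAF by edgeR, beside 8.19% of all genes called higher and 9.17% lower. Of 71 tested proteasome genes 31 were called higher (43.7%) and 2 lower, with a median log2 fold change of 0.55. Of 116 tested peroxisome genes 23 were called higher (19.8%) and 6 lower, with a median of 0.20. Of 178 tested genes of ubiquitin-mediated proteolysis 20 were called higher (11.2%) and 9 lower. Endocytosis had 17 higher and 22 lower of 209, the phagosome pathway 14 higher and 10 lower of 97, and vesicle fusion proteins of the SNARE class 1 higher and 4 lower of 39. The share of autophagy genes called higher in the same comparison was 11.4%. The differences between these lists were not tested. For 120 against 60 DAF 5 proteasome genes were called higher (7.04%) and 2 lower (2.82%), beside 4.25% and 5.22% of all genes. Of the peroxisome genes 14 were called higher (12.1%) and 5 lower (4.31%). Ubiquitin-mediated proteolysis had 8 higher and 8 lower (4.49% each). Endocytosis had 5 higher and 7 lower of 209, the phagosome pathway 1 higher and 9 lower of 97, and the SNARE class 2 higher and 2 lower of 39.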
